A study of Mus musculus with 4 samples.

Results

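IgA-switched germinal-centre B cells are the cells of the authors' germinal-centre-like cluster (cluster 3 of their cell table) in which Igha, the IgA heavy-chain constant gene, was the most abundant of 8 heavy-chain constant genes. A cell was counted when its unique molecular identifiers (UMIs, 1 per captured RNA molecule) over Ighm, Ighd, Igha, Ighg1, Ighg2b, Ighg2c, Ighg3 and Ighe summed to 3 or more and Igha alone had the most. Members were thus chosen by their heavy-chain counts and by the authors' clustering, and the values of these 8 genes are descriptions without a test. The rule gave 499 cells, out of 1900 cells of cluster 3, 22569 cells of the authors' table and 31885 barcodes. Of the 499, SFB-negative replicates 1 and 2 held 16 and 40, and SFB-positive replicates 1 and 2 held 62 and 381. The remaining 132, 679, 141 and 449 cells of cluster 3 served as the comparison. They included cells in which Ighm, Ighg1 or Ighg2b was on top, called IgM-dominant, IgG1-dominant and IgG2b-dominant.

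The series profiled single CD45+ cells (leukocytes) that were sorted out of the Peyer's patches of female wild-type Taconic mice. The first group lacked segmented filamentous bacteria (SFB), commensals that attach to the ileal epithelium, and the second carried them. Each had 2 droplet libraries (Chromium 3′ v3.1). Per the series text, tissue from 5 mice of each group was pooled, and the age of the mice is not given in the sources used here. Whether the 2 replicates of a group come from separate pools is not given either, so the spread between libraries may be technical. The edgeR p-values and SE took that spread largely from all genes together, not from each gene alone.

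Peyer's patches are lymphoid follicles of the small intestine that hold germinal centres at all times, driven by gut microbes and food. B cells there divide, mutate their antibody genes and switch from IgM to other classes. In this tissue TGF-beta steers switching toward IgA, and IgA plasma cells that leave the follicles secrete the antibody into the gut lumen. Naive and early activated B cells carry positioning receptors such as GPR183 and CCR7, which germinal-centre B cells normally shut off.

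Replicate 1 libraries held 7198366 and 6979187 UMIs and replicate 2 libraries 47273320 and 83600989. The replicate number also went with the Cell Ranger version in the file headers (6.0.0 or 7.0.0) and with the presence of 15 antibody tags, so these cannot be told apart from it. Libraries of the same number shared 30 and 40 cell barcodes and those of different numbers at most 1, and no member's barcode was shared. The median UMI count per member was 3977, 7396, 4266 and 17610 in SFB-negative replicates 1 and 2 and SFB-positive replicates 1 and 2, the order used for all values by library below. That of other cluster 3 cells was 4206.5, 7359, 4088 and 16233. Because most members lie in SFB-positive replicate 2, the deepest library, results are also given without it.

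Members carried germinal-centre RNA. At least 1 UMI of Rgs13, a G-protein regulator of germinal-centre B cells, was found in 68.8%, 75%, 62.9% and 79.8% of members and in 61.4%, 82.5%, 56.7% and 82.0% of other cluster 3 cells. In T cells of the same libraries the share was 0.442%, 2.49%, 0.8% and 0.613%, at median depths of 1574.5, 3493.5, 1404 and 6488 UMIs per cell against 3977, 7396, 4266 and 17610 in members. The median member had UMIs of 6, 9, 7 and 12 of 14 germinal-centre genes, and none had 0. Markers of T cells and plasma cells were low beside the levels in those cells. The 12 T-cell markers summed to 7 to 35 CPM (UMI counts scaled to the same total in each class) in members, against 4812 to 11586 in T cells of the same libraries. The 9 plasma-cell markers summed to 860 to 1776 CPM in members and 1056 to 2202 in other cluster 3 cells, against 23033 to 64877 in plasma-like cluster 6. Myeloid markers summed to 161 to 274 CPM in members and 166 to 198 in the others, and were not set beside myeloid cells.

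Some members with many Igha UMIs had no Rgs13. The member with the most Igha UMIs in SFB-positive replicate 2 held 2002 of them among 38321 UMIs, with 1043 of Jchain, 9 of Ccr10 and 4 of Sdc1, genes of antibody-secreting cells, 53 of the proliferation gene Mki67 and none of Rgs13. The next held 430 Igha and 292 Jchain UMIs, again with no Rgs13. The top member of SFB-negative replicate 2 held 89 Igha UMIs, none of Rgs13, and 51 of S100a10 and 32 of Klf2. Results were therefore recomputed without the top member of each library.

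IgA-switched cells made up 11.3% and 7.25% of cluster 3 cells with a called isotype in SFB-negative libraries and 33.7% and 47.8% in SFB-positive libraries. The means were 9.30% ± 2.90 (SD, n = 2) and 40.7% ± 9.98, a difference of 31.5 percentage points. The groups did not overlap, and the difference was 22.3 points within replicate number 1 and 40.6 within number 2. The part was proposed with this share known, so the share is a description without a test. The difference was 30.0 points as a share of all cluster 3 cells and 26.9 when each cell was thinned to 1500 UMIs. In counts of cells, Igha was on top in 16, 40, 62 and 381 cells, Ighg2b in 13, 30, 57 and 205, Ighg1 in 64, 339, 14 and 46, and Ighm in 47, 135, 49 and 160. Another 5, 131, 13 and 18 cells had too few UMIs and 2, 36, 6 and 15 had a tie, so IgG1-dominant cells were the most frequent class among the comparison cells of SFB-negative libraries and IgG2b-dominant cells in SFB-positive ones. As a share of all cells in the authors' table, IgA-switched cells were 0.395% and 0.517% without SFB and 1.82% and 5.16% with SFB, and IgG1-dominant cells of cluster 3 were 1.58% and 4.38% against 0.411% and 0.623%. IgG2b-dominant cells were 0.321% and 0.388% against 1.67% and 2.78%, higher with SFB as IgA-switched cells were. IgM-dominant cells were 1.16% and 1.75% against 1.44% and 2.17%. Of these classes only IgM-dominant cells overlapped between the groups on this scale, so the rise with SFB was not particular to IgA. The share within cluster 3 rests on the same Igha counts as the rule.

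**Figure D1:**
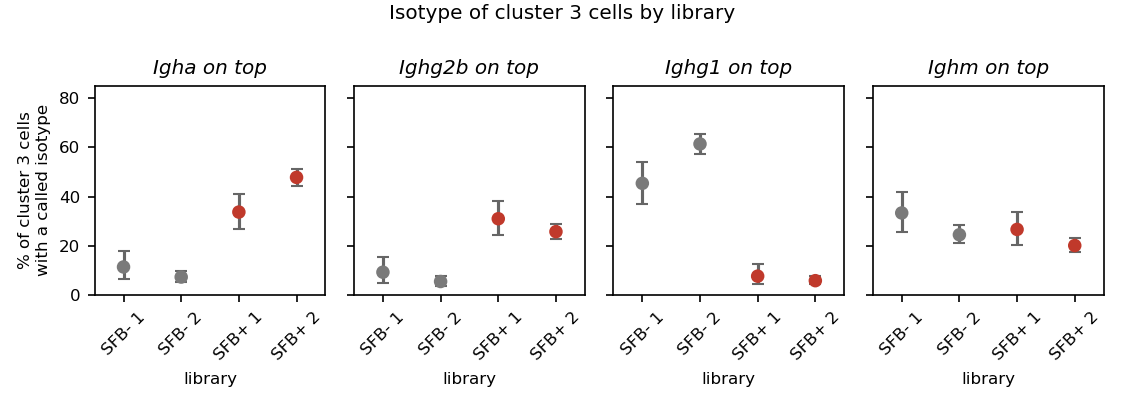
Share of cluster 3 cells with a called isotype (y axis, percent) in which Igha, Ighg2b, Ighg1 or Ighm was on top, by library (x axis; grey SFB-negative, red SFB-positive), with exact binomial 95% intervals that cover counting error only. The Igha share was 11.3% and 7.25% without SFB and 33.7% and 47.8% with SFB.

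The median member held 9, 5, 10 and 17 Igha UMIs, and 31.3%, 45%, 53.2% and 32.0% of members held no UMI of the other 7 genes. At the edge of the rule, 14 members had exactly 3 UMIs and 8 cells with 2 Igha UMIs fell just outside. Free RNA in the droplets was measured in T cells, which do not make antibody: the rule was met by 0 of 226, 0 of 764, 1 of 250 and 6 of 979, where the counts of 0 allow shares of up to 1.33% and 0.393%. Any Igha UMI was found in 7.96%, 1.57%, 9.20% and 11.6% of T cells (median 1574.5, 3493.5, 1404 and 6488 UMIs) and in 31.8%, 15.3%, 53.7% and 71.7% of cluster 3 cells (median 4184.5, 7359, 4144 and 17122 UMIs). Igha (ENSMUSG00000095079) lies on the minus strand of chromosome 12 at 113254830 to 113260236 (GRCm38). Its annotated transcripts shared 0 of 2619 stretches of 50 bases with the other 7 genes, so reads should not be split between Igha and the IgG genes, whereas Ighg2b shared 70 of 2628 (2.66%) with its near copy Ighg2c.

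Antibody tags, which bind proteins on the cell surface and were not used by the rule, were counted in the replicate 1 libraries. The IgA tag was found with at least 1 UMI in 81.2% (exact 95% interval 54.4 to 96.0) of 16 members without SFB and in 79.0% (66.8 to 88.3) of 62 members with SFB. It was found in 36.4% and 30.5% of other cluster 3 cells and in 27% and 18.4% of T cells. The IgG1 tag was found in 18.8% and 12.9% of members and in 96.9% and 71.4% of IgG1-dominant cells. The IgM tag was found in 0% and 12.9% of members against 36.2% and 24.5% of IgM-dominant cells. Members were thus the highest class for IgA in cluster 3 and low for both other tags. In IgG2b-dominant cells the IgA tag stood at 61.5% and 33.3%. Tag counts were low, with a median of 2.5 and 2.0 IgA UMIs per member against 0 in T cells. The IgD tag was found in 87.5% and 79.0% of members but also in 70.8% and 62.4% of T cells, and was not read further. The CD196 tag (CCR6 protein) was found in 25.0% and 29.0% of members, 35.6% and 29.8% of other cluster 3 cells and 27% and 24.8% of T cells. Some T cells held Ccr6 RNA too (1.77% in SFB-negative replicate 1), so they are not a clean background for this tag. Whether members carry CCR6 protein was therefore not read from it. The median of the CD38 tag was 5.5 and 4.0 UMIs in members, 6.0 and 8.0 in IgM-dominant cells and 20 and 13 in naive-like clusters.

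**Figure D2:**
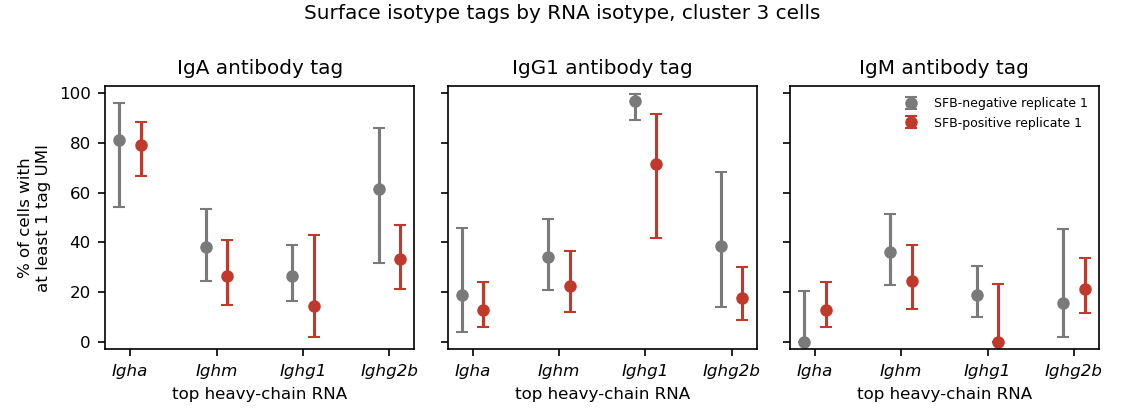
Share of cells (y axis, percent) with at least 1 UMI of the IgA, IgG1 or IgM antibody tag, by class of cells (x axis), in the replicate 1 libraries (grey SFB-negative, red SFB-positive) with exact binomial 95% intervals. The IgA tag was found in 81.2% and 79.0% of IgA-switched cells and the IgG1 tag in 96.9% and 71.4% of IgG1-dominant cells.

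The comparison with unswitched germinal-centre cells asked how the RNA of members differed from IgM-dominant cells of the same cluster and library. Members had less RNA of receptors and co-receptors of naive and early activated B cells. They had more of Lgals1 (galectin-1), Crip1 (a small LIM-domain protein), Anxa2 (annexin A2, a membrane-binding protein) and Scimp (an adaptor at sites of antigen presentation). UMIs were summed per library and class and tested with edgeR's quasi-likelihood test with the library as a term, adjusted over all 4588 genes tested. Of these, 315 differed (6.87%), 73 higher (1.59%) and 242 lower (5.27%) in members. Levels below are CPM after TMM scaling, and differences are log2, members minus compared cells, ± the SE of the edgeR fit to 4 libraries.

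Gpr183, the oxysterol receptor that keeps B cells at the follicle edge, stood at 40.2, 30.9, 11.2 and 15.7 CPM in members and 52.2, 161, 52.0 and 126 CPM in IgM-dominant cells. It was lower in 4 of 4 libraries, by a log2 difference of -2.81 ± 0.20 (edgeR adjusted p = 1.46e-10), and by -2.05 without SFB-positive replicate 2 (adjusted p = 0.0120). Ccr7, the chemokine receptor that draws cells toward the T zone, stood at 93.7, 58.5, 48.7 and 26.2 CPM against 166, 162, 204 and 146 (-2.17 ± 0.19, and -1.57 without that library). Its values did not overlap between the classes, and neither did those of Cd72. Cd72, an inhibitory co-receptor of the B-cell receptor, stood at 134, 48.1, 112 and 41.4 CPM against 294, 158, 364 and 175 (-1.91 ± 0.14, and -1.59 without it). Cd38, an NAD-consuming surface enzyme kept high on mouse naive and memory B cells, stood at 26.8, 27.5, 15.0 and 15.9 CPM against 42.7, 57.2, 143 and 88.7 (-2.34 ± 0.24). Its difference did not pass without SFB-positive replicate 2 (-1.90, adjusted p = 0.111). Of 10 naive follicular genes tested (of 12), 7 were lower and 0 higher, with a median of -1.31 against -0.01 over all genes. The other 4 were Satb1 (a chromatin organiser, -1.28), Fcer2a (the low-affinity IgE receptor CD23, -0.82), Cd55 (a complement regulator, -1.70) and Cr2 (complement receptor CD21, -0.75).

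Antigen presentation and activation genes were lower too. Of 11 MHC class II genes tested, 7 were lower and 0 higher (median -0.29). H2-Aa, a class II alpha chain, stood at 4672, 1898, 4196 and 1744 CPM in members and 6253, 2530, 5701 and 2159 in IgM-dominant cells (-0.39 ± 0.05), lower in each library. H2-Q7, a non-classical class I gene with near copies in the genome between which reads can be split, was lower as well (-2.49 ± 0.21). Of 17 B-cell receptor genes, 4 were lower (Cd72, Fcrla, Cd79a and Inpp5d) and 0 higher. Of 12 heat shock and immediate-early genes, 5 were lower (among them Fos at -1.42 and Jun at -1.31, with Junb, Ier2 and Hspa1a) and 0 higher. Among 13 light-zone genes, Myc (-1.23), the growth regulator induced by T-cell help, Cd69 (-0.96) and Cd83 (-0.51) were lower and 0 were higher.

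Among the genes that were higher, Lgals1 stood at 66.9, 203, 93.7 and 75.9 CPM in members and 42.7, 48.6, 26 and 36.8 in IgM-dominant cells (1.38 ± 0.19, edgeR adjusted p = 5.20e-06). Anxa2 stood at 335, 248, 547 and 280 CPM against 190, 118, 165 and 168 (1.01 ± 0.14), and the classes did not overlap. Crip1 stood at 950, 1248, 603 and 483 CPM against 442, 788, 316 and 265 (0.85 ± 0.10). Scimp stood at 214, 220, 247 and 217 CPM against 114, 120, 121 and 101 (1.02 ± 0.12). These 4 genes were higher in 4 of 4 libraries and passed without SFB-positive replicate 2 and with DESeq2. The DNA-binding factors Sox5 (1.34 ± 0.15) and Tox (1.65 ± 0.20) were also higher, but their levels went with the replicate number. Sox5 stood at 40.2 and 18.7 CPM in the replicate 1 libraries and 230.1 and 477 in the replicate 2 libraries, and Tox at 13.4 and 52.4 against 141 and 477. The part of the processing version in these levels was not tested, and neither gene passed without SFB-positive replicate 2 (adjusted p = 0.0584 and 0.276). Of 14 germinal-centre identity genes, 5 were higher and 0 lower (median 0.45): Gcsam (a motility regulator, 0.79), Nuggc (0.67), Mef2b (a transcription factor upstream of Bcl6, 0.61), Fas (a death receptor, 0.61) and S1pr2 (a receptor that confines cells to the follicle, 0.78). Jchain, which joins IgA units, was higher by 0.46 ± 0.10 (adjusted p = 0.00382), but the top member of SFB-positive replicate 2 held 22.7% of the members' Jchain UMIs there. Without the top members Jchain did not pass (0.30, adjusted p = 0.0572). Of 11 plasma-cell fate and secretion genes tested it was the 1 that was higher, and 4 were lower: Pdia4 (-1.25) and Hsp90b1 (-0.56), chaperones of the secretory pathway, Irf4 (a transcription factor of plasma-cell fate, -1.15) and Ell2 (an elongation factor of antibody secretion, -0.61).

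Of the 315 genes called against IgM-dominant cells, DESeq2 called 73 and 19 remained past the limit without SFB-positive replicate 2, while 248 of 250 with a value there kept their direction. The edgeR spread was taken largely from all genes together, so a very small p-value says little of how a single gene varied between libraries.

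**Figure D3:**
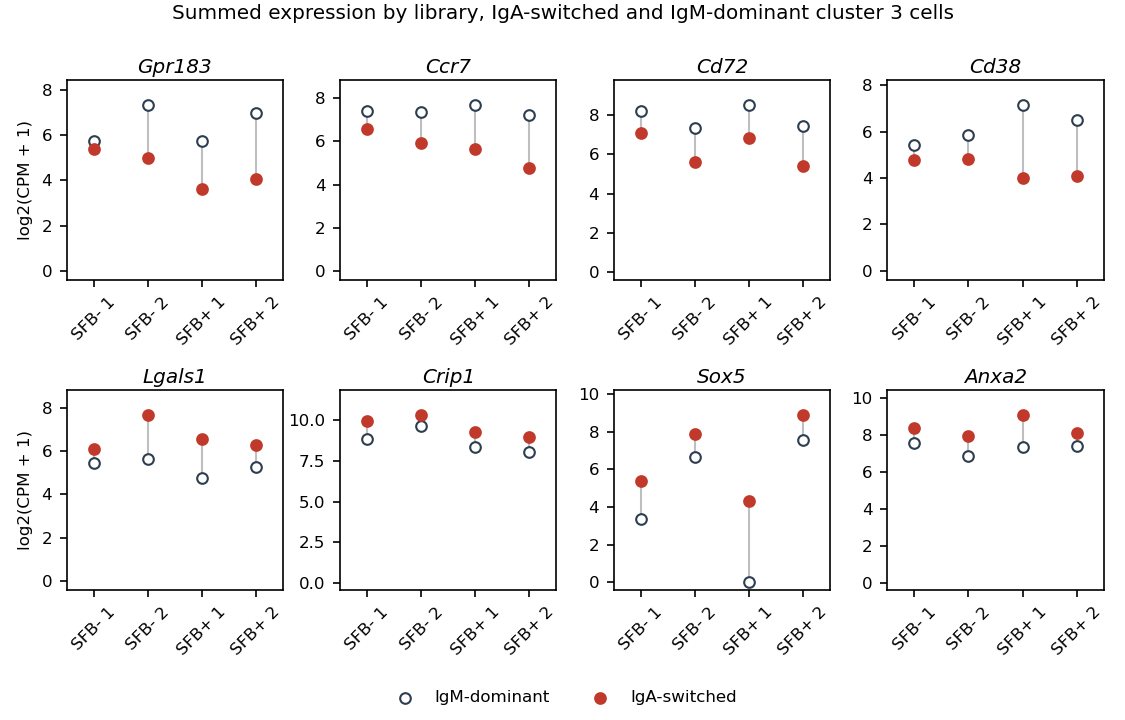
Level of 8 genes (y axis, log2 of CPM + 1) in IgA-switched (filled) and IgM-dominant (open) cluster 3 cells of each library (x axis), with a line joining the classes of a library. Gpr183, Ccr7, Cd72 and Lgals1 differed in the same direction in each of the 4 libraries.

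The comparison with cells switched to IgG asked which of these differences go with the class switched to. Against IgG1-dominant cells 18 of 4607 genes differed (0.391%), 4 higher (0.0868%) and 14 lower (0.304%). Against IgG2b-dominant cells 23 of 4249 differed (0.541%), 7 higher (0.165%) and 16 lower (0.377%). The numbers of cells and genes differ between these comparisons, and the difference between them was not tested. The comparisons share the members, so their values are set side by side and do not support each other.

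Lgals1 passed in each of these comparisons. It was higher than in IgG1-dominant cells by 1.31 ± 0.20 (edgeR adjusted p = 7.56e-07) and than in IgG2b-dominant cells by 1.21 ± 0.18 (3.75e-05), in 4 of 4 libraries each. Levels in IgG1-dominant cells were 51.2, 59.6, 86.8 and 36.9 CPM, and in IgG2b-dominant cells 62.6, 31.8, 60.8 and 36.7 CPM. In SFB-negative replicate 2, 1 member held 19 of the 59 Lgals1 UMIs (32.2%). Without the top members the Lgals1 differences were 1.04 and 1.11 and both passed, but without SFB-negative replicate 2 the difference from IgG1-dominant cells did not (0.82, adjusted p = 0.598). Lgals1 (ENSMUSG00000068220) lies on chromosome 15 at 78926725 to 78930465, plus strand (GRCm38).

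Against IgG1-dominant cells, Bfsp2, a beaded-filament gene, stood at 136, 197, 281 and 129 CPM in members and 381, 360.4, 469 and 263 CPM in IgG1-dominant cells. It was lower by 0.98 ± 0.14 on the log2 scale (log2 difference -0.98, edgeR adjusted p = 1.31e-08), and was the only gene of this comparison that DESeq2 also called. It passed without SFB-positive replicate 2 (-0.93, adjusted p = 0.00229). Ube2c, a ubiquitin enzyme of mitosis, was lower (312, 184, 330.0 and 250.0 CPM against 531, 243, 503 and 509; -0.80 ± 0.13), and 18 of 20 mitosis genes had negative values (median -0.31), of which Ube2c alone passed. Icam1, an adhesion molecule, was lower by 0.94 (log2 difference -0.94). Ptprj, a receptor tyrosine phosphatase, stood at 0, 64.6, 26.5 and 200.2 CPM in members against 7.32, 39.0, 17.4 and 107 (0.83 ± 0.20), and Suclg2 (a citric acid cycle enzyme, 0.71) and Sub1 (a transcription cofactor, 0.74) were the other genes that were higher.

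Against IgG2b-dominant cells, the genes that were higher included Ptprj (1.26 ± 0.17), Crip1 (0.43 ± 0.10) and Itga4 (0.70 ± 0.14), the alpha-4 integrin chain that pairs with beta-7 for entry into the gut wall. Itga4 stood at 55.0, 302, 41.6 and 264 CPM in members and 93.9, 154, 56.7 and 157 in IgG2b-dominant cells, higher in the replicate 2 libraries and lower in the replicate 1 libraries. Parm1, a mucin-like membrane gene, was lower (13.7, 61.1, 15.1 and 47.8 CPM against 47.0, 77.2, 24.3 and 152; -1.52 ± 0.17), as were Nrgn (a calmodulin-binding gene, -1.24), Fcer2a (-0.76), Btla (an inhibitory receptor, -0.53), Eaf2 (an elongation factor partner, -0.50) and H2-Ab1 (-0.22). Parm1 and Nrgn were lower than in IgG1-dominant cells too (-1.14 and -1.29). DESeq2 called no gene of this comparison, and of the 23 genes Lgals1 alone remained past the limit without SFB-positive replicate 2, where Parm1 stood at -0.52. In that setting Bfsp2, Lgals1 and Uchl3 remained of the 18 called against IgG1-dominant cells.

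Of the 242 genes lower than in IgM-dominant cells, Arid5b and Zfp608 were also lower than in IgG1-dominant cells, and Dmxl1, Fcer2a, H2-Ab1 and Samsn1 than in IgG2b-dominant cells. Ccr7 and Cd72 did not pass against either IgG class. Ccr7 differed by 0.77 ± 0.27 from IgG1-dominant cells (adjusted p = 0.327) and by -0.24 ± 0.21 from IgG2b-dominant cells, and Cd72 by 0.41 ± 0.24 and -0.30 ± 0.18. Gpr183 and Cd38 were too low in these classes to be tested. Ptprj, higher than in both IgG classes, was lower than in IgM-dominant cells (-1.03 ± 0.15).

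**Figure D4:**
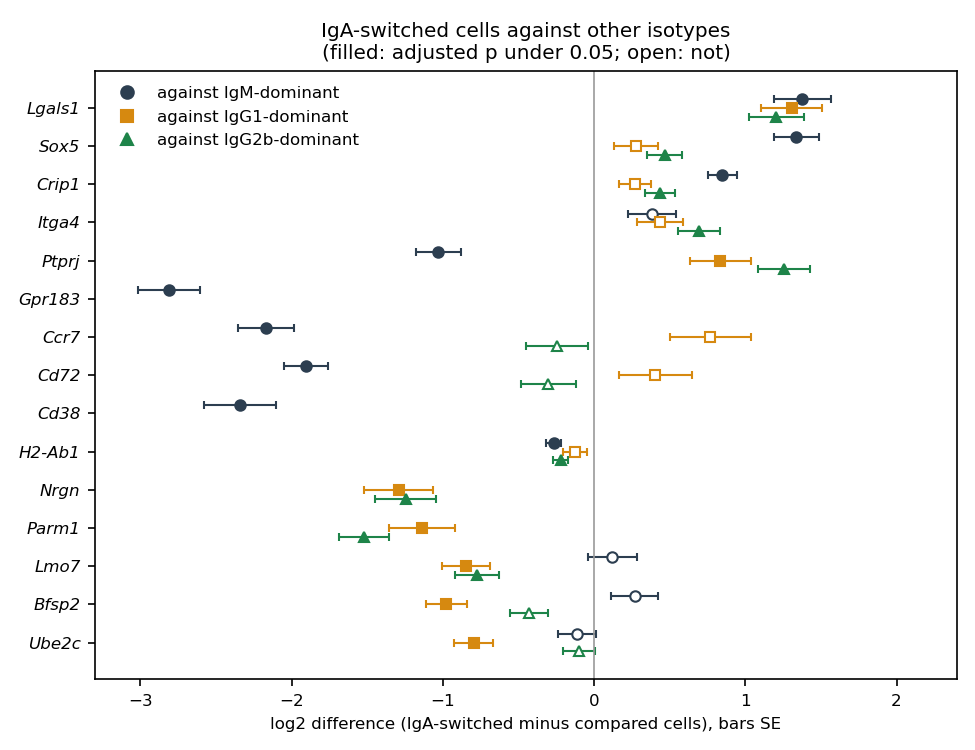
Log2 difference (x axis, IgA-switched minus compared cells) of 15 genes (y axis) against IgM-, IgG1- and IgG2b-dominant cluster 3 cells. Bars are ± the SE of the edgeR fit to 4 libraries. Filled points have an edgeR adjusted p under 0.05, and a point is missing where a gene was too low in that comparison to be tested. Lgals1 lies between 1.21 and 1.38 against each class, while Ccr7 and Cd72 pass against IgM-dominant cells only.

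Against all other cluster 3 cells of the same library, 145 of 6529 genes differed (2.22%), 24 higher in members (0.368%) and 121 lower (1.85%). The lower group included positioning receptors and naive B-cell genes, beside others such as Sdc4 (a syndecan, -1.93), Arhgap24 (-1.60) and H2-Q7 (-1.48). Ccr6, the CCL20 receptor that guides B cells to the dome under the epithelium and in mice marks a path toward memory cells, stood at 0, 6.82, 10.8 and 15.7 CPM in members and 14.9, 29.9, 26.7 and 68.8 CPM in the others. It was lower in 4 of 4 libraries (-2.11 ± 0.18, edgeR adjusted p = 5.92e-19) and was too low to be tested without SFB-positive replicate 2. Ccr6 was also too low to be tested against IgM-, IgG1- or IgG2b-dominant cells alone, so no single class can be named for this difference. Gpr183 (-1.84 ± 0.18), Ccr7 (-1.22 ± 0.15) and S1pr1 (the egress receptor, -0.81 ± 0.22) were lower too, in 4 of 4 libraries. Itga4 was higher (0.51 ± 0.11), in 2 of 4 libraries. Of 11 migration genes tested (of 18), 4 were lower and 1 higher, and Cxcr5, the follicle-homing receptor, differed by -0.09 ± 0.12. Of 11 naive follicular genes 6 were lower and 0 higher (median -0.73 against -0.01 over all genes). Summed over 12 naive follicular genes, unscaled levels were 1368, 1075, 652 and 942 CPM in members and 1371, 1626, 1430 and 1910 in IgM-dominant cells, which are among the others here.

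Dock10, an activator of small GTPases, was lower by 1.17 on the log2 scale (log2 difference -1.17 ± 0.11) and Cd72 by 1.05 (-1.05 ± 0.13). Dock10 differed by -1.94 ± 0.15 from IgM-dominant cells. It did not pass against IgG1-dominant (-0.38 ± 0.17, edgeR adjusted p = 0.712) or IgG2b-dominant cells (-0.43 ± 0.14, edgeR adjusted p = 0.257). Of 11 class II genes, 3 were lower, each in 4 of 4 libraries: H2-Aa (-0.25), H2-Ab1 (-0.23) and Cd74 (the invariant chain, -0.12). Of 8 memory-fate genes, Ccr6 and Cd38 (-1.25) were lower and Nt5e (CD73, 0.44 ± 0.10) was higher. Lgals1 (1.20 ± 0.14), Sox5 (0.69 ± 0.10) and Crip1 (0.45 ± 0.07) were higher in 4 of 4 libraries. Lgals1 stood at 62.9, 201, 89.8 and 71.7 CPM in members and 46.2, 57.4, 48.7 and 35.0 in the others, and with each cell thinned to 1500 UMIs it did not pass (0.56, adjusted p = 0.681). Of 17 oxidative phosphorylation genes 0 passed in either direction, and of 11 glycolysis genes Tpi1 was higher (0.33 ± 0.09).

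Against all other cells 2.22% of all genes tested passed. Low counts in short lists are near that share, so those of this comparison below are not read as a result about the lists. Of 16 class-switch genes tested (of 19), 1 was lower, the end-joining nuclease gene Dclre1c (-0.60), and 0 were higher. Of 10 genes of TGF-beta and retinoic acid signalling tested (of 16), 0 passed. Their largest differences were Runx3 (-0.78 ± 0.26, edgeR adjusted p = 0.0936), Tgfbr2 (-0.34 ± 0.12) and Skil (-0.33 ± 0.13). Against IgM-dominant cells, 3 of 9 tested passed: Tgfbr1, a TGF-beta receptor chain, was higher (0.56 ± 0.15, edgeR adjusted p = 0.0155), and Tgfbr2, its partner chain (-0.74 ± 0.15), and Skil, a repressor of the pathway (-0.65 ± 0.16), were lower. Dclre1c was lower there too (-0.81). The 14 germinal-centre identity genes (median 0.09), the 7 dark-zone genes and the 20 mitosis genes (median -0.10) held 0 calls, and of 18 S-phase genes Mcm6 was higher (0.31). Rgs13 stood at 465, 535, 507 and 425 CPM against 613, 541, 476 and 528 (-0.17 ± 0.08, edgeR adjusted p = 0.454). Of 12 plasma-cell fate genes Irf4 was lower (-0.63) and Jchain differed by -0.06 ± 0.20.

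DESeq2 called 8 of the 145 genes: Lgals1 and Crip1 higher, and Ccr6, Gpr183, Dock10, Cd72, Vps37b and B2m lower. Without SFB-positive replicate 2, Lgals1, B2m, H2-Aa and H2-Ab1 remained past the limit and 110 of 113 genes with a value kept their direction.

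Light-chain use was compared between members and other cluster 3 cells. Lambda genes took 25.6%, 19.0%, 12.4% and 14.4% of light-chain constant UMIs in members and 11.1%, 22.7%, 7.38% and 14.1% in other cluster 3 cells. The mean difference was 4.03 points with an SD of 7.84 over 4 libraries (exact two-sided sign-flip permutation p = 0.375). With 4 libraries this test cannot give a p under 0.05 for any difference, so no conclusion is drawn from it. Variable segments were seen with at least 2 UMIs mainly in replicate 2 libraries. In SFB-positive replicate 2, 56 of 381 members had a dominant kappa variable segment, spread over 27 segments. Igkv1-117 was the most frequent, with 12 of the 56 (21.4%, exact 95% interval 11.6 to 34.4). In other cluster 3 cells of that library 68 of 449 had one, over 28 segments, with Igkv1-110 the most frequent at 13. In SFB-negative replicate 2, 12 of 40 members had one, over 7 segments, led by Igkv14-111 in 5. Near-identical segments can share reads, so the names are uncertain.

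The comparison of members with and without SFB asked whether the RNA of IgA-switched cells differed between the groups. The edgeR test over 4824 genes called 0 genes (0%), with 4 higher and 11 lower at an unadjusted p under 0.05, and DESeq2 called 0 with 11 at that level. The smallest library summed 16 cells. On simulated counts, changed genes that failed the filter on low counts were left out of the rates. Of the changed genes tested, 27.7% of those changed by 1 on the log2 scale and 90.5% of those changed by 2 were recovered. The simulated spread between libraries was set well below that of the data, whose fitted common dispersion (a measure of that spread) was 0.303. These rates are thus too high for the data, and the 0 calls do not bound the size of a change. The largest separation without overlap was in Hspa1a, the inducible chaperone HSP70, at 13.2 and 17.7 CPM in SFB-negative and 199.8 and 225 CPM in SFB-positive libraries (3.70 ± 0.72, adjusted p = 1.00). The SFB-negative levels rest on 1 UMI in 1 of 16 members and 5 UMIs in 2 of 40, against 54 and 1503 UMIs with SFB. Its near copy Hspa1b can share its reads. Hsph1, another heat-shock chaperone, stood at 26.5 and 77.8 against 129 and 272 CPM (1.83 ± 0.75). Slfn2, a quiescence gene of lymphocytes, stood at 79.5 and 77.8 against 11.1 and 17.8 CPM (-2.35 ± 0.74). The Slfn2 levels rest on 6 and 22 UMIs against 3 and 119, and those of Hsph1 on 2 and 22 against 35 and 1811. With the replicate number as a block, 5 genes were higher (Hspa1a, Hsph1, Atg4a, Tox and Pdzd2) and 15 lower, 0.415% of those tested. By size the 15 were led by the gene model AY036118 (-4.46), Cdk8 (-4.46), S100a10 (-4.18), Hist1h4d (-3.63), Cmss1 (-3.35) and Lars2 (-2.99). For S100a10, 1 cell of SFB-negative replicate 2 held 51 of 57 UMIs. Cdk8 was high in that library alone, at 39.7 and 2463 CPM against 22.2 and 76.5. Slfn2 (-2.26) and Ifi27l2a (an interferon-induced gene, -2.11) were also among the 15.

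The last comparison asked whether the SFB difference in members differed from that in other cluster 3 cells, as an interaction in 1 model. It called 2 of 6529 genes as higher (0.0306%), the unnamed gene models Gm42031 and 2810403A07Rik, and 18 as lower (0.276%). Those lower included S100a10 (the partner of annexin A2), Klf2 (a quiescence and egress factor), Capg (an actin-capping protein), Vim (vimentin), the interferon-induced Ifi203, Mndal and Ifi27l2a, and Slfn2. S100a10 stood at 37.7 and 194 CPM in SFB-negative members and 21.6 and 6.30 in SFB-positive members, against 13.2 and 15.5 and 29.9 and 23.3 in other cells. The interaction was -5.17 ± 0.42 (edgeR adjusted p = 1.47e-24), and S100a10 was the only gene that DESeq2 called. However, 1 member of SFB-negative replicate 2, the one with the most Igha UMIs, held 51 of its 57 S100a10 UMIs (89.5%), 32 of 60 of Klf2, 38 of 82 of Sub1 and 44 of 80 of Pycard. Without the top members S100a10 no longer passed (-2.90, adjusted p = 0.0659), nor did Klf2 (-0.67, adjusted p = 0.858).

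That member held 0 of the Capg UMIs, but another single cell held 10 of the 13 Capg UMIs of SFB-negative replicate 1, and 1 cell held 7 of 15 in SFB-negative replicate 2. Both cells stay in when the top members are left out. Capg stood at 164, 51.1, 79.0 and 14.3 CPM in members and 74.3, 46.1, 149 and 43.6 in the others (-1.98 ± 0.40, edgeR adjusted p = 0.000970). It was -2.14 without the top members and -2.61 without SFB-negative replicate 2, and passed in both, but not without SFB-positive replicate 2 (-1.44, adjusted p = 0.754) or SFB-negative replicate 1 (-1.54, adjusted p = 0.177). Of the 20 genes, Capg, Mndal, Ifi27l2a, Tagln2 and Tmsb4x remained past the limit without the top members. Mndal and Ifi203 belong to a cluster of similar genes between which reads can be split. By library, members held only 2, 11, 3 and 80 UMIs of Mndal and 0, 16, 2 and 36 of Ifi203. The isotypes of the other cells also differed between the groups, with 64 and 339 IgG1-dominant cells without SFB and 14 and 46 with SFB, and their part in the interaction was not tested.

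**Figure D5:**
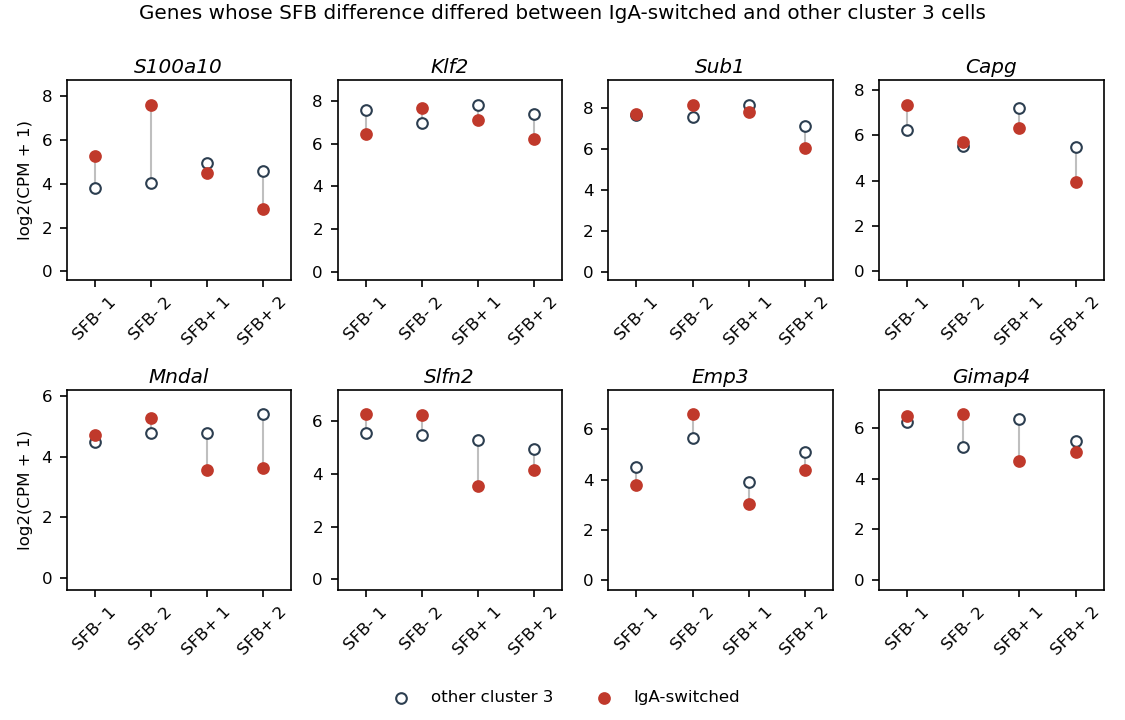
Level (y axis, log2 of CPM + 1) of 8 genes called in the interaction, in IgA-switched (filled) and other cluster 3 cells (open) of each library (x axis). S100a10 in members of SFB-negative replicate 2 (194 CPM) rests on 1 cell with 51 of 57 UMIs, and Capg in members of SFB-negative replicate 1 (164 CPM) on 1 cell with 10 of 13. Capg lies above the other cells in both SFB-negative libraries and below them in both SFB-positive libraries.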

How the data were processed

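The matrices hold raw UMI counts, as deposited by the authors, for 31053 genes and, in replicate 1 libraries, 15 antibody tags, per the file headers. The submitters' processing notes name Cell Ranger 5.0.1 and mm10, whereas the headers give 6.0.0 and 7.0.0. The authors' cell table, used as deposited, gives a library code, a cluster number (other), counts per cell, the percent of mitochondrial UMIs (all under 10) and layout coordinates (a score without unit). How the authors filtered, removed doublets, clustered and counted introns is not given here. No doublet caller was run.

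UMIs were summed per library and class and tested with edgeR 4.0.16 in R 4.3.3 (quasi-likelihood, robust, TMM, filterByExpr, Benjamini-Hochberg limit 0.05). The library was a term between classes, and no block was used for SFB. DESeq2 1.42.0, other filters, thinning to 1500 UMIs, a minimum of 5 or 1 heavy-chain UMIs, and leaving out libraries or the member with the most Igha UMIs were alternatives. Classes needed 10 cells per library. The edgeR step was tested on simulated data of the comparison with other cluster 3 cells, with 200 changed genes. Of those that passed the filter, 83.3% with a log2 change of 1 and 100% with a change of 2 were recovered. There were 2 false calls among 6865 genes. The 8 heavy-chain genes were left out of calls, since the rule used them. T cells were cells outside the table with at least 3 CD3 UMIs and no B-cell genes.

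Genes were named by rule. For each comparison the rule took up to 12 genes per direction with the largest log2 differences among those past the limit, with the same sign in every library and a mean of at least 20 CPM. Where fewer than 5 passed, it added the 5 of smallest p, as values. Genes of the lists that passed were added, with up to 3 more per list by expression, and Igha and Rgs13. Members and lists were chosen with earlier results of these data known. B2m, Vps37b, Vim, Tagln2, Tmsb4x, Pdzd2, Gm42031, 2810403A07Rik, Arid5b, Zfp608, the variable segments and the genes near Igha were named after their values were seen. The same holds for AY036118, Hist1h4d, Cmss1 and Lars2. Intervals cover counting error only. A gene of the fixed lists is not reported here.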

Additional observations from a re-analysis of the deposited data

Results flagged for a closer look

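The SFB difference of 12 named genes in IgA-switched cells differed from that in other cluster 3 cells, by the interaction term of the edgeR model. The values are log2 differences of the SFB difference, members minus other cells. They were -5.17 for S100a10, -3.34 for Ifi203, -2.30 for Mndal, -2.30 for Sla, -1.98 for Capg, -1.76 for Rilpl2, -1.67 for Slfn2 and -1.65 for Lockd. For the remaining genes they were -1.58 for Emp3, -1.57 for Gimap4, -1.47 for Klf2 and -1.41 for Sub1.

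The member of SFB-negative replicate 2 with the most Igha UMIs (89, with none of Rgs13) held 51 of 57 S100a10 UMIs, 7 of 16 of Ifi203, 32 of 60 of Klf2, 38 of 82 of Sub1 and 9 of 28 of Emp3, and 0 of Capg and Mndal. Without the top members, Capg (-2.14, edgeR adjusted p = 0.000281) and Mndal (-2.42, 0.0454) passed. This leaves in the cells that held 10 of 13 Capg UMIs in SFB-negative replicate 1 and 7 of 15 in replicate 2. All members together held 2 and 11 Mndal UMIs in SFB-negative libraries and 3 and 80 in SFB-positive libraries. The remaining 10 of the 12 kept their direction with an adjusted p above 0.05, from 0.0659 for S100a10 to 0.858 for Klf2.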

How the results depend on the processing

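The share of IgA-switched cells kept its direction in all settings run (24.4 to 38.5 points over the libraries left out), as did the lambda share (0.537 to 6.60 points). Counts of called genes moved, and the cause was not tested. Counts are given as higher and lower in members, in the order other, IgM-, IgG1- and IgG2b-dominant cells, where a setting changed them by over 1.5 times. DESeq2 called 2 and 6, 18 and 58, 0 and 1, and 0 and 0. With cells thinned to 1500 UMIs they were 1 and 15, 7 and 32, 0 and 0, and 1 and 2. With no filter on low counts, IgM gave 139 and 439, IgG1 7 and 9, and IgG2b 12 higher. A minimum of 5 heavy-chain UMIs gave 2 higher for IgG1, and 3 and 9 for IgG2b. Without the top members IgG1 gave 2 and IgG2b 11 higher. Without the library term the comparison with other cells gave 0 and 0. Leaving out 1 library gave ranges of 1 to 48 and 4 to 177, 4 to 133 and 17 to 321, 0 to 15 and 5 to 25, and 3 to 15 and 1 to 19, with the low end mostly without SFB-positive replicate 2.

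For SFB within members, no filter gave 1 gene lower and leaving out 1 library 0 to 6 lower. The interaction gave 0 and 1 with DESeq2, 1 higher without a filter, 0 and 6 without the top members, 0 and 0 thinned, and 0 to 6 and 2 to 25 with 1 library left out. With 1 library left out the Emp3 interaction ran from -1.78 to 0.023, positive without SFB-negative replicate 2.

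The replicate numbers carry no stated pairing, and with 2 pairs the deviations from the group means correlated at 0.635 in members. With the replicate block 5 genes were higher and 15 lower with SFB. Added after seeing the data, the block gave 5 and 13 without the top members, and 0 and 6 with thinned cells. In the class comparisons the library was already a term.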

Other observations

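Crip1 lies near Igha, past the genes Tmem121 and Tedc1, which were not tested. Its 3′ end (chromosome 12, 113153879, plus strand, GRCm38) is 101 kb past the 3′ end of Igha, and the 2 genes are transcribed toward each other. In log2 differences, members minus compared cells, Crip1 stood at 0.85 ± 0.10 (SE of the edgeR fit, 4 libraries) against IgM-dominant cells. It stood at 0.43 ± 0.10 against IgG2b-dominant and 0.27 ± 0.11 against IgG1-dominant cells, the last not past the limit (edgeR adjusted p = 0.494). Of 16 protein-coding genes in the 500 kb past Igha, 7 were tested against other cluster 3 cells. Crip1 (0.45, adjusted p = 4.78e-07) was higher and Gpr132, a receptor for lysophospholipids and acid (-1.12, adjusted p = 0.000125), was lower. The other 5 did not pass: Mta1 (0.32), Brf1 (0.26), Nudt14 (0.25), Cdca4 (-0.06) and Pld4 (-0.17). No pattern along the region was tested.

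The IgG1-dominant cells of SFB-negative replicate 2 often shared variable segments: Ighv1-47 was on top in 42 of 64 cells with a heavy-chain segment, and Igkv1-110 in 62 of 135 with a kappa segment. Among the 40 members of that library 1 had a heavy-chain segment, and 2 of 12 with a kappa segment had Igkv1-110. The difference was not tested.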
